A study of Mus musculus with 32 samples.

Results

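The comparison described here is the genotype difference in the response of mouse dendritic cells to 2 h of lipopolysaccharide (LPS, a bacterial cell wall component): the change from no LPS to 2 h in dKO cells minus the same change in WT cells. WT cells were wild type and dKO cells carried the genotype Lmp7-/-Mecl1-/-, which removes the immunoproteasome subunits encoded by Psmb8 (LMP7) and Psmb10 (MECL1). All mice were of the C57BL/6 strain, and age was not given. Bone marrow was grown for 9 days with GM-CSF, and 1 µg/mL LPS was added on day 9 before harvest. RNA-seq libraries came from 4 groups of 4 (WT no LPS, WT 2h LPS, dKO no LPS and dKO 2h LPS), 16 of the 32 libraries of the series. Of 22216 genes in the tables, 10955 had at least 1 RPKM (reads scaled to gene length and to the mapped reads of the library) in at least 4 of the 16 libraries and were tested. The labels do not say whether the 4 libraries of a group came from separate mice or cultures, so a p-value here is set against the variation among libraries of a group, which could be technical only.

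LPS is sensed by Toll-like receptor 4 (Tlr4), which signals through 2 adaptors. The MyD88 arm activates NF-kappaB and MAP kinases within minutes and drives cytokine and chemokine genes, which negative feedback genes such as the dual specificity phosphatases then limit. The TRIF arm activates the factor IRF3 and induces interferon beta, which acts back on the same cells through its receptor and the factors STAT2 and IRF9 to raise a broad set of interferon-stimulated, mostly antiviral, genes. The immunoproteasome replaces the standard catalytic subunits of the proteasome in immune cells and is best known for cutting proteins into peptides for MHC class I molecules.

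Psmb8 stood at 171 to 198 RPKM in the 8 WT libraries and 3.63 to 7.42 RPKM in the 8 dKO libraries, and Psmb10 at 48.5 to 61.2 and 2.37 to 13.8 RPKM, so the genotype labels matched the data. Between 1.32 and 1.87 gigabases aligned to genes per library, and the ERCC spike-ins, RNA standards added to each sample, held 0.528% to 0.883% of the RPKM sum in WT and 0.28% to 0.366% in dKO libraries. The LPS state of 3 dKO libraries went against their labels. By its correlation with the WT means at each time, the library labelled dKO no LPS replicate 2 lay nearest to WT at 1 h, dKO 2h LPS replicate 2 nearest to WT without LPS, and dKO 2h LPS replicate 4 nearest to WT at 6 h. Their correlations with the WT mean of the labelled time were 0.817 to 0.924, against 0.97 to 0.98 for the other 5 dKO libraries and 0.994 to 0.996 for the 8 WT libraries. Tnf, the gene of tumour necrosis factor, showed the same. It was at 20.0 to 25.8 RPKM in WT without LPS and 3146 to 3845 RPKM in WT at 2 h. In dKO without LPS, replicates 1 to 4 held 18.5, 6060, 18.3 and 14.8 RPKM, and at 2 h they held 3917, 20.5, 3386 and 972 RPKM. Replicate 2 of each dKO group thus had the level of the other group or beyond it, and the groups overlapped.

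**Figure D1:**
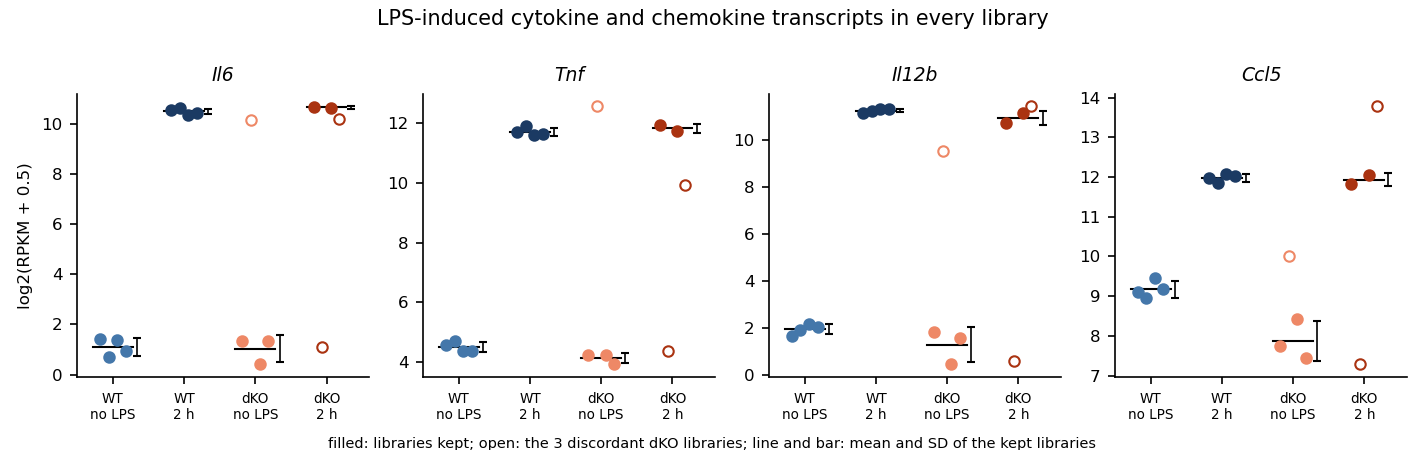
Level of 4 LPS-induced genes (Il6, Tnf, Il12b, Ccl5) on the log2(RPKM + 0.5) scale in each of the 16 libraries, by group. Open points are dKO no LPS replicate 2 and dKO 2h LPS replicates 2 and 4. The open point without LPS has Il6 at 1124 RPKM, and the lowest open point at 2 h has it at 1.67 RPKM.

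The number of genes that differed is therefore given over the 16 libraries as labelled and again without these 3. The smaller set holds 3 dKO libraries without LPS (replicates 1, 3 and 4) and 2 at 2 h (replicates 1 and 3). Differences of single genes and of lists are without the 3 libraries unless marked as labelled. For many of them the difference as labelled had the other sign. No library was moved to another group. The 3 were picked by their LPS state, which is part of what is measured, so the spread in the smaller set is narrowed by the choice, and its dKO 2 h value rests on 2 libraries. Differences are on the log2(RPKM + 0.5) scale with their standard error, from limma, with Benjamini-Hochberg adjusted p over all 10955 genes and a call below 0.05. The added 0.5 understates the change of genes with low RPKM.

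As labelled, 4 of 10955 genes differed in their response (0.0365%), 2 higher in dKO (0.0183%) and 2 lower (0.0183%), while 933 had an unadjusted p under 0.05. The 2 lower genes were Ifna1, an interferon alpha, and Rhob, a small GTPase of endosomes and the actin cytoskeleton. Ifna1 was listed at 0 in the 4 WT libraries without LPS and at 3.74, 3.25, 2.48 and 4.66 RPKM in those at 2 h. It was listed at 0 in the 4 dKO libraries at 2 h and in 3 of 4 without LPS, with 0.0945 RPKM in replicate 2. The difference was -3.05 (limma adjusted p = 1.5e-05), and no dKO library reached the lowest WT library at 2 h. Ifna1 passed the filter only through the 4 WT libraries at 2 h, so the sign of its difference is tied to how it entered. Rhob went from 23.4, 21.0, 22.4 and 24.9 RPKM to 135, 123, 144 and 167 RPKM in WT. In dKO replicates 1 to 4 it was at 31.6, 44.1, 35.0 and 31.7 RPKM without LPS and at 63.3, 29.6, 67.7 and 44.2 RPKM at 2 h. At 2 h all 4 dKO libraries lay below all 4 WT libraries (difference -2.14, limma adjusted p = 0.0073).

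The 2 higher genes as labelled were Tlr11, a receptor for profilin of parasites, and the uncharacterised C77080. Tlr11 fell in WT from 3.26 to 4.08 RPKM without LPS to 0.315 to 0.520 RPKM at 2 h. It was under 0.19 RPKM in all 8 dKO libraries, so its difference of 2.12 (limma adjusted p = 3e-04) held the WT fall and next to no dKO signal. C77080 went from 3.14 to 3.76 RPKM to 0.346 to 0.483 RPKM in WT and was at 0.0208 to 0.216 RPKM in dKO (1.93, limma adjusted p = 3e-04). Tlr11 and C77080 passed the filter only through WT without LPS, so the sign of their differences is tied to how they entered. Both calls ended with a pseudocount of 0.1, that of Tlr11 also with quantile normalization, and that of Rhob with median-of-ratios scaling. With a replicate block within each genotype the calls of Tlr11, C77080 and Rhob ended. The median difference over all genes as labelled was 0.26, and -0.02 with median-of-ratios scaling.

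Without the 3 discordant libraries, 548 genes differed (5%), 272 higher in dKO (2.48%) and 276 lower (2.52%), around an all-gene median of -0.01. The difference was at least 2-fold for 54 of the higher and 40 of the lower genes, and all 4 genes called as labelled were among the 548. The response itself was broad in both genotypes: in the fit without the 3 libraries limma passed 1534 genes as higher (14%) and 8331 as lower (76%) at 2 h in WT, and 1501 (13.7%) and 8042 (73.4%) in dKO. In the fit of all 16 libraries it passed 1143 as higher (10.4%) and 7329 as lower (66.9%) in WT, and 5052 in either direction (46.1%) in dKO. The median response over all genes was -0.74 in WT and -0.78 in dKO on this scale, so a response near that value is that of the middle gene. The counts of the response depend on the scaling. Over the 16 libraries 8472 genes passed in either direction in WT, against 6499 with median-of-ratios scaling and 6435 with quantile normalization.

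Among the 272 higher genes, 83 had a WT response of 2-fold or more upward, and all 83 also had one in dKO. Another 125 were within 2-fold in WT, of which 34 went up 2-fold or more in dKO. The other 64 had a WT response of 2-fold or more downward, of which 33 were within 2-fold in dKO. Among the 276 lower genes, 48 had a WT response of 2-fold or more upward, of which 24 stayed within 2-fold in dKO. A further 173 were within 2-fold in WT, of which 80 went down 2-fold or more in dKO, and 55 went down in both. These classes count from 0 and so hold the fall of the middle gene. With the all-gene median of each response taken off, a division chosen after seeing the data, 132 of the higher genes rose 2-fold or more in WT, 110 were within 2-fold and 30 fell, of which 132, 70 and 8 were in the same class in dKO. Of the lower genes it was 82, 172 and 22, of which 52, 153 and 22 were in the same class in dKO. The genotypes lay further apart before LPS than at 2 h for 110 of the 272 higher genes but for 38 of the 276 lower genes. Over all 10955 genes, limma passed 696 as higher and 3987 as lower by 2-fold or more in WT. The other counts of this paragraph were not made over all genes, so they do not set the called genes apart.

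**Figure D2:**
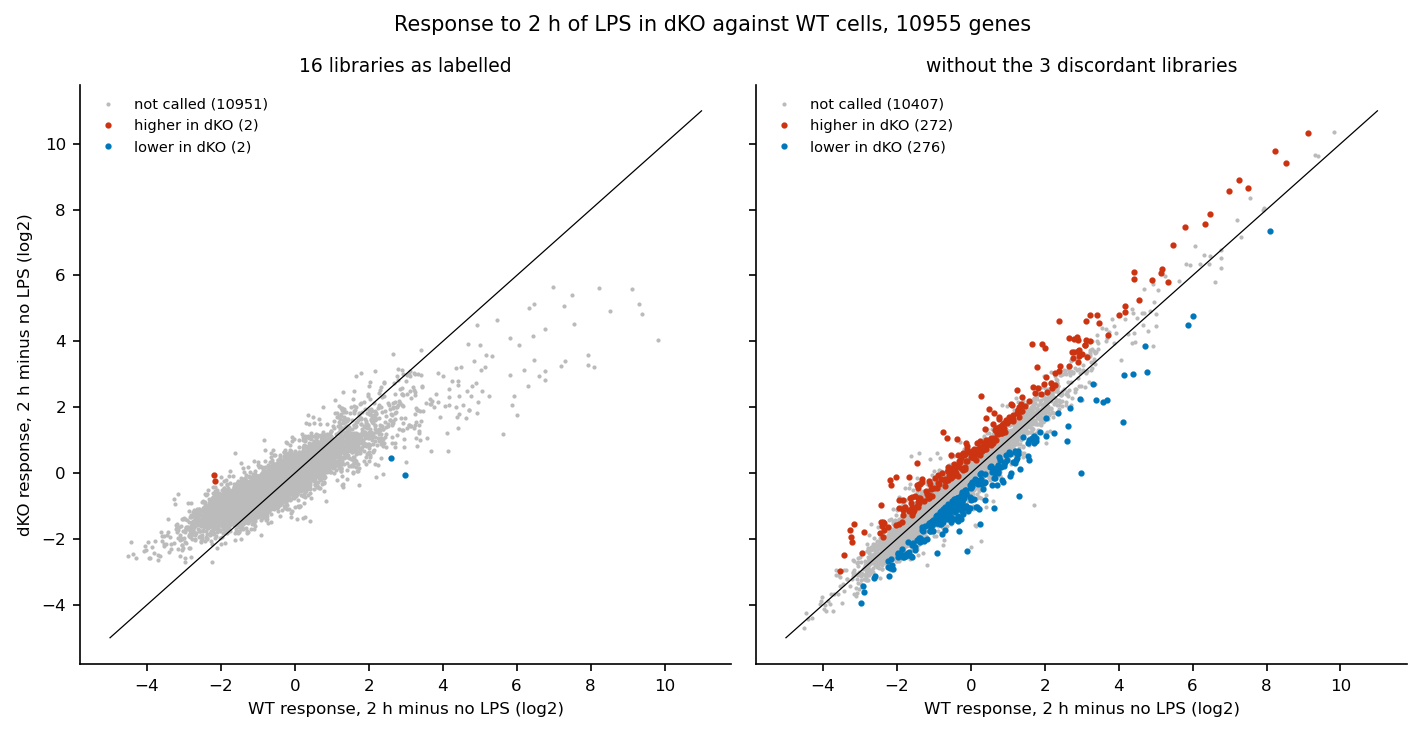
Response to 2 h of LPS in dKO cells (vertical, log2) against that in WT cells (horizontal, log2) for 10955 genes, over the 16 libraries as labelled (left) and without the 3 discordant libraries (right). Each point is a gene, the line marks equal responses, and coloured points are called higher or lower. As labelled, genes with a large WT response lie nearer to no response in dKO and 4 are called. Without the 3 libraries the points lie along the line and 548 are called.

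The interferon-stimulated genes were the list with the most calls. Of 36 members, all tested, 21 had a higher response in dKO without the 3 libraries and 0 a lower one, against 2.48% and 2.52% of all genes. As labelled limma called 0, and 0 had an unadjusted p under 0.05. The median difference as labelled was 0.145, beside 0.26 over all genes, and 20 of 36 members were above 0. Without the 3 libraries the median difference of the list was 0.70, beside -0.01 over all genes, and 35 of 36 members were above 0 (47.7% of all genes). In 34 of the 36 the dKO mean without LPS was below the WT mean (63.1% of all genes), with a median gap of -1.01 beside -0.06 over all genes. At 2 h the median gap was -0.24, beside -0.09, and 26 of the 36 were still below WT (62.7% of all genes). The larger response in dKO thus started from a lower level for most members and narrowed the median gap to WT without closing it.

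Isg15, a ubiquitin-like protein attached to proteins in antiviral defence (mm9 chr4:155573533-155574927), was at 22.7, 27.8, 23.3 and 28.9 RPKM in WT without LPS and at 1521, 1422, 1419 and 1465 RPKM at 2 h. The dKO libraries held 9.07, 7.80 and 7.03 RPKM without LPS and 1451 and 1538 RPKM at 2 h. The 3 discordant libraries held 432 RPKM without LPS and 5.49 and 1692 RPKM at 2 h. The genotypes were apart before LPS and overlapped at 2 h, with a difference in response of 1.66 ± 0.14 (limma adjusted p = 2e-05), but of -1.70 (limma adjusted p = 0.71) as labelled. Ifit1, which binds viral RNA (mm9 chr19:34715379-34724499), had 4.26 to 5.37 RPKM in WT and 1.13 to 1.33 RPKM in dKO without LPS. It reached 802 to 861 RPKM in WT and 754 and 925 RPKM in dKO (1.63 ± 0.12, limma adjusted p = 1.5e-05). As labelled its difference was -2.19 (limma adjusted p = 0.66).

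Rsad2, the antiviral enzyme viperin (mm9 chr12:27127608-27141317), crossed over. WT libraries had 4.19 to 4.84 RPKM before LPS and 1398 to 1657 RPKM at 2 h. The dKO libraries had 1.84 to 2.89 RPKM before LPS and 2261 and 2651 RPKM at 2 h, below WT before and above it after (1.57 ± 0.16, limma adjusted p = 9.7e-05). Cmpk2, its neighbour in the genome and a mitochondrial nucleotide kinase, did likewise, from 2.98 to 3.80 RPKM to 444 to 519 RPKM in WT and from 1.10 to 1.66 RPKM to 557 and 788 RPKM in dKO (1.57 ± 0.19). Rtp4, a chaperone of membrane receptors, stayed below WT at both times, at 17.4 to 24.7 and 82.0 to 89.1 RPKM in WT against 3.01 to 5.23 and 60.3 and 74.8 RPKM in dKO (1.79 ± 0.23). Ifih1, the RNA sensor MDA5, had 344 to 379 RPKM in WT and 428 and 523 RPKM in dKO at 2 h (0.93 ± 0.11). Ifit2 (1.39 ± 0.18), Oasl2 (1.45 ± 0.25) and Ifi205 (1.21 ± 0.21) were called as well. As labelled the differences were -2.585 for Rsad2, -1.32 for Cmpk2, 0.63 for Rtp4 and -1.93 for Ifih1. They were -1.34 for Ifit2, 1.25 for Oasl2 and -1.33 for Ifi205. Oas2 (1.00 ± 0.22, limma adjusted p = 0.02) lost its call without dKO 2h LPS replicate 3 (0.79, limma adjusted p = 0.099). Members that did not pass included Ifit3 (0.83 ± 0.30, limma adjusted p = 0.14), Usp18, which removes Isg15 from proteins (0.78 ± 0.26, 0.11), and Gbp2, a guanylate-binding protein (-0.10 ± 0.14, 0.78).

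**Figure D3:**
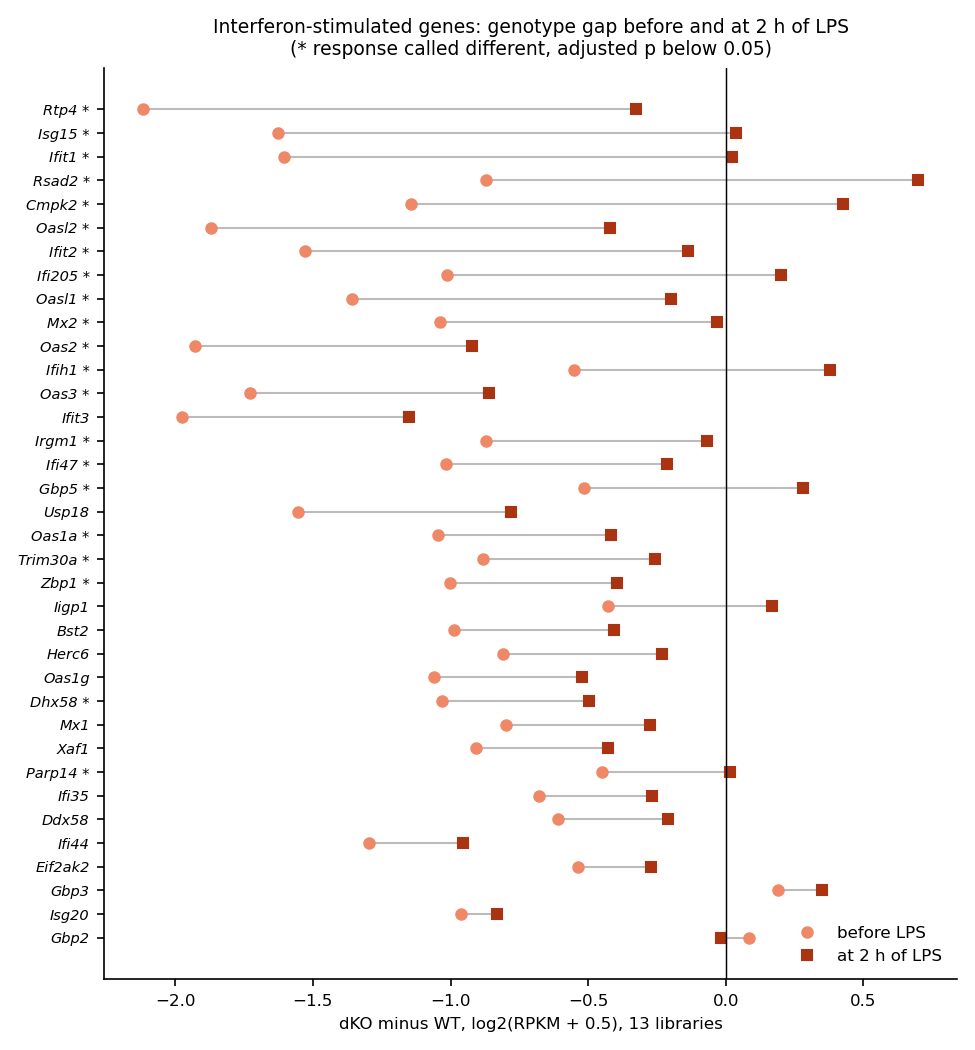
Genotype gap (dKO minus WT, log2) of the 36 interferon-stimulated genes before LPS (circles) and at 2 h (squares), over the 13 libraries. The distance between both marks is the difference in response, and a star marks the 21 called genes. Most circles lie left of 0 and most squares nearer to it.

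The sequence before the start of 5 of these and other called genes is shown because their genotype differences had opposite signs while each holds the same short motif. All 5 rose with LPS in both genotypes in the libraries kept. Promoters were taken from RefSeq (build GRCm38.p6), which matched 7878 of the 10955 tested genes by symbol. Each is 250 bases long, 5′ to 3′ on the gene's strand, and ends at the base before the annotated start. Capitals mark every match to GAAANNGAA on either strand, the core of an interferon-stimulated response element (ISRE), the DNA element bound by IRF and STAT-IRF9 complexes. Overlapping matches are joined. Isg15, Ifit1 and Rsad2 had a higher response in dKO, and Ifna4 and Ccl1, described below with their values, a lower one. The windows are chr4:156200819-156201068 (minus strand), chr19:34640639-34640888 (plus), chr12:26456453-26456702 (minus), chr4:88841566-88841815 (plus) and chr11:82179813-82180062 (minus).
Isg15: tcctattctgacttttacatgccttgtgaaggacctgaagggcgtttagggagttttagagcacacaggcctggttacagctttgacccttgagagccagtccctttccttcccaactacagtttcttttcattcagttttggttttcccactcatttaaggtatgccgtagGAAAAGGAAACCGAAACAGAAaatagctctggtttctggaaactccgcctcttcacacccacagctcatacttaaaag
Ifit1: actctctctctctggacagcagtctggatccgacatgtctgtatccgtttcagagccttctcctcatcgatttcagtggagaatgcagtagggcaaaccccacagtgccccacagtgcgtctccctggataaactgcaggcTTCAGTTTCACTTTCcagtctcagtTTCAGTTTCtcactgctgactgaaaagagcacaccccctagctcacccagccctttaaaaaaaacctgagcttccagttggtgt
Rsad2: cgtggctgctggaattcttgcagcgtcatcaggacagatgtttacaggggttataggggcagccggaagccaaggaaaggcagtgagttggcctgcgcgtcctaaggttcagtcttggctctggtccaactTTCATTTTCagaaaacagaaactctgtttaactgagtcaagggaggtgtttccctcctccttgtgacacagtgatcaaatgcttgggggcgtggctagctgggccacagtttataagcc
Ifna4: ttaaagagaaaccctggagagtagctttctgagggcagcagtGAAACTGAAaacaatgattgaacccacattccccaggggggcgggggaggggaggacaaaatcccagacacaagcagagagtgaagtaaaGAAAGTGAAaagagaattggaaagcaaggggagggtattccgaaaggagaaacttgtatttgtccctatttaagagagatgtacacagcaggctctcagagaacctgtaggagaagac
Ccl1: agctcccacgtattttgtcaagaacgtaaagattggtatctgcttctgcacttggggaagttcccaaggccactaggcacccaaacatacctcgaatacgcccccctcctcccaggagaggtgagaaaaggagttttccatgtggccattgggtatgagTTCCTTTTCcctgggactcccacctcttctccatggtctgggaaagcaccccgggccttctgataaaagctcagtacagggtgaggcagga

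Isg15 and Ifit1 each held 3 matches, Ifna4 held 2, and Rsad2 and Ccl1 held 1. Over the genes with a promoter in the table, a match was found for 7.88% of all tested, 15.6% of the 205 called higher and 10.8% of the 212 called lower. Of 27 interferon-stimulated genes with a promoter, 55.6% held one. The NF-kappaB-like letters GGNNTTTCC were found for 6.55%, 10.7% and 6.13% of all, higher and lower genes, and the AP-1-like letters TGANTCA for 5.47%, 11.2% and 4.72%, either strand. Among all 32851 windows of the table, the 3 motifs were in 7.13%, 4.93% and 6.75%. A match describes the letters only, and binding was not measured.

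The interferon alpha genes had differences of the other sign, with a smaller rise in dKO or none. Of 20 tested type I interferon genes and regulatory factors, 4 were higher and 7 lower without the 3 libraries (2.48% and 2.52% of all genes), with a median of -0.04. Ifnb1, the first interferon made, did not pass: it went from 0.179 to 0.528 RPKM to 633 to 872 RPKM in WT and from 0.133 to 0.313 RPKM to 912 and 935 RPKM in dKO (0.53 ± 0.20, limma adjusted p = 0.16). Ifna4 (mm9 chr4:88487720-88488363) was listed at 0 in 3 WT libraries and at 0.0803 RPKM in the other before LPS, and rose to 34.9, 34.9, 26.1 and 36.5 RPKM at 2 h. In dKO it was listed at 0 in the 3 libraries kept and reached 10.9 and 15.8 RPKM, below every WT library (-1.24 ± 0.20, limma adjusted p = 0.0034). Ifna2 had 7.25 to 9.44 RPKM in WT and 2.92 and 4.00 RPKM in dKO at 2 h (-1.18 ± 0.18, limma adjusted p = 0.0021). Ifna1 kept its call without the 3 libraries (-2.98 ± 0.24). Ifna5, with 4.9 to 7.59 RPKM in WT and 1.01 and 3.06 RPKM in dKO at 2 h (-1.48 ± 0.33), lost its call without dKO 2h LPS replicate 1 (-0.86, limma adjusted p = 0.061). The interferon alpha genes are near-identical copies, so how reads were divided among them is uncertain, and the 4 are not independent.

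Irf7, the factor that amplifies interferon production and is itself induced by interferon, was at 18.1 to 19.5 RPKM in WT and 3.30 to 5.84 RPKM in dKO without LPS. At 2 h it was at 113 to 125 and at 76.5 and 100 RPKM, lower in dKO both times but with a larger change (1.46 ± 0.20, limma adjusted p = 0.0011). Stat2 went from 61.5 to 66.0 RPKM to 152 to 173 RPKM in WT and from 31.8 to 38.7 RPKM to 129 and 158 RPKM in dKO (0.69 ± 0.12, limma adjusted p = 0.0041). Its partner Irf9 was also called (0.43 ± 0.10), but not without dKO 2h LPS replicate 3 (0.31, limma adjusted p = 0.095). Irf2, which competes with activating factors at the same elements, fell from 38.2 to 42.2 RPKM to 25.0 to 29 RPKM in WT and from 44.0 to 50.3 RPKM to 22.6 and 22.8 RPKM in dKO (-0.50 ± 0.10, limma adjusted p = 0.01). Irf1 (0.37), Irf5 (-0.39) and the receptor kinase Tyk2 (-0.36) were called, but each lost the call without any of at least 4 single libraries, with limma adjusted p up to 0.12.

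**Figure D4:**
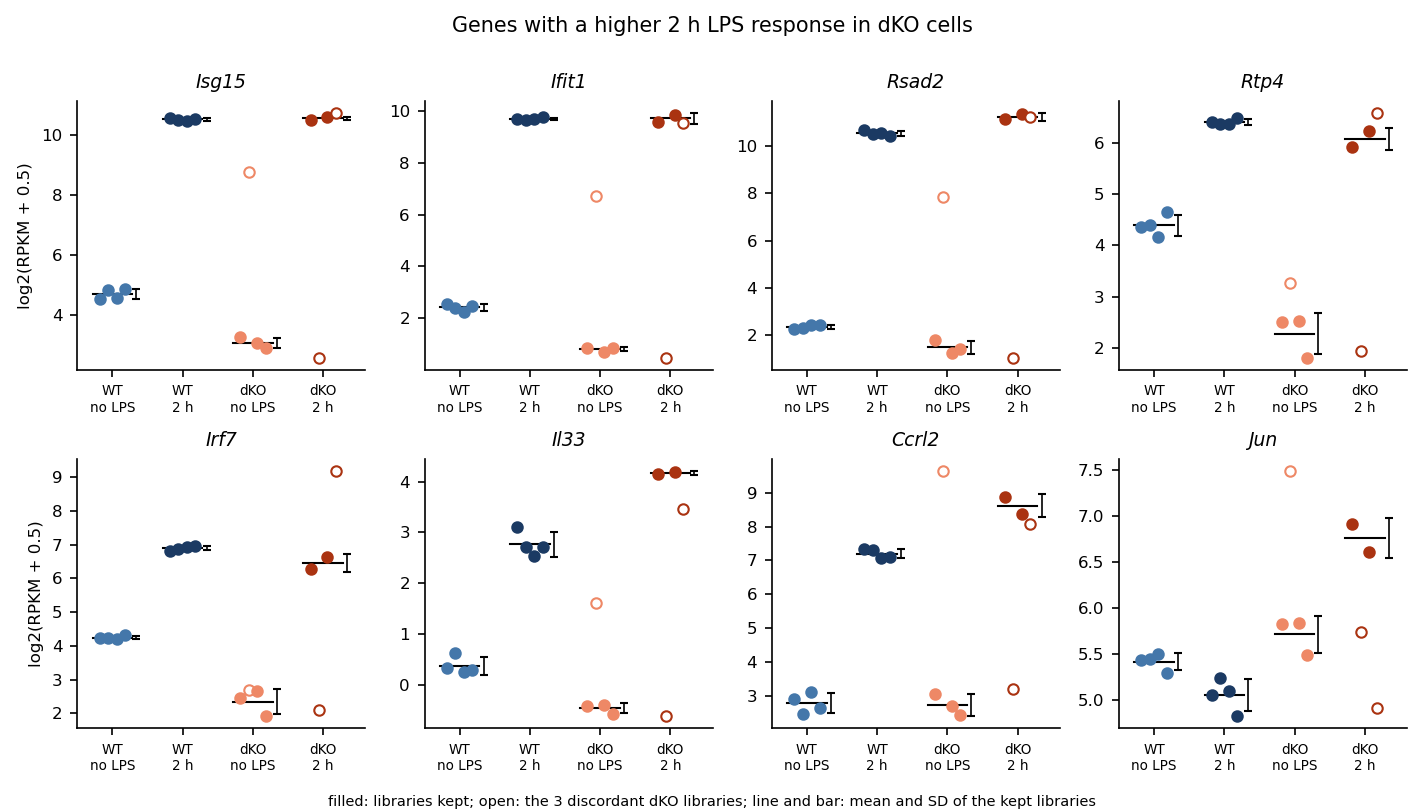
Level of 8 genes with a higher response in dKO on the log2(RPKM + 0.5) scale in each library. Isg15, Ifit1, Rtp4 and Irf7 start lower in dKO and end near or below WT. Il33, Ccrl2 and Jun end above WT at 2 h in the kept libraries.

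Chemokines recruit other leukocytes, and 16 CC chemokine and receptor genes and 10 CXC genes were tested. Without the 3 libraries 4 and 2 of them were higher and 0 lower (2.48% and 2.52% of all genes), with medians of 0.30 and 0.06. As labelled limma called 0 of them, the medians were -0.48 and -1.14, and 4 and 0 members were above 0. Cxcl10, an interferon-induced ligand that draws T cells, went from 4.95 to 5.70 RPKM to 3125 to 3464 RPKM in WT and from 1.69 to 3.31 RPKM to 3785 and 3792 RPKM in dKO (1.22 ± 0.19, limma adjusted p = 0.0028). Cxcl11, a ligand of the same receptor, was at 23.4 to 29.2 RPKM in WT and 81.0 and 92.5 RPKM in dKO at 2 h, with the groups overlapping before (1.46 ± 0.20). Ccrl2, a chemokine-like receptor that holds chemerin on the cell surface, reached 134 to 160 RPKM in WT and 331 and 465 RPKM in dKO from overlapping levels of 4.91 to 8.29 RPKM (1.48 ± 0.26, limma adjusted p = 0.0047). Ccl5 started at 497 to 704 RPKM in WT and 174 to 342 RPKM in dKO and reached 3686 to 4295 RPKM and 3634 and 4227 RPKM (1.27 ± 0.27). Its call was lost without dKO 2h LPS replicate 3 (1.16, limma adjusted p = 0.062). Cxcr4, the receptor for Cxcl12, fell less in dKO, from 27.4 to 40.6 RPKM to 8.21 and 11.2 RPKM against 33.0 to 39.8 RPKM to 2.17 to 4.65 RPKM in WT (1.52 ± 0.31), but lost its call without dKO 2h LPS replicate 1 (1.30, limma adjusted p = 0.063). The neutrophil-attracting Cxcl2 (-0.01 ± 0.36, limma adjusted p = 0.99) and the macrophage inflammatory genes Ccl3 (-0.23 ± 0.27, 0.71) and Ccl4 (0.06 ± 0.17, 0.90) did not pass.

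Ccl1, a ligand of the receptor CCR8 on regulatory and type 2 helper T cells (mm9 chr11:81990168-81993314), had the lowest difference among the lower genes taken by rank, those with a group mean of at least 5 RPKM. It was listed at 0 in the 4 WT libraries without LPS and at 7.50, 5.83, 9.62 and 10.8 RPKM at 2 h. In dKO it was listed at 0 in the 3 kept libraries without LPS and was at 0.643 and 1.36 RPKM at 2 h, with 2.81 RPKM in replicate 4. The groups did not overlap at 2 h (-2.58 ± 0.29, limma adjusted p = 2e-04), and since the starting level is listed at 0, the size depends on the added 0.5.

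Of 25 tested inflammatory cytokines, 3 were higher and 3 lower without the 3 libraries (2.48% and 2.52% of all genes), with a median of 0.23. As labelled limma called 0 of them, the median was -1.695, and 4 of 25 were above 0. The main cytokines of the LPS response did not pass: Il6 had 1308 to 1570 RPKM in WT and 1572 and 1641 RPKM in dKO at 2 h (0.23 ± 0.31, limma adjusted p = 0.77). Tnf (0.49 ± 0.16, 0.10), Il12b (0.34 ± 0.36, 0.69), Il1b (0.54 ± 0.36, 0.47) and Il10 (-0.26 ± 0.22, 0.60) likewise missed the threshold. A p that misses the threshold does not show that they responded alike. Il33, an alarmin of the interleukin 1 family, was at 5.26 to 8.08 RPKM in WT and 17.1 and 17.8 RPKM in dKO at 2 h, from 0.683 to 1.04 and 0.173 to 0.256 RPKM (2.23 ± 0.20, limma adjusted p = 4.2e-05). Lta, which encodes lymphotoxin alpha, started at 4.03 to 8.72 RPKM in WT and 1.16 to 2.50 RPKM in dKO and overlapped at 2 h (1.58 ± 0.32). Tnfsf15, a ligand of the tumour necrosis factor family that costimulates T cells, was higher too (0.90 ± 0.16), as was Tnfsf4, the costimulator OX40 ligand, from 17.6 to 21.5 RPKM to 324 to 395 RPKM in WT and from 5.72 to 7.98 RPKM to 231 and 267 RPKM in dKO (0.88 ± 0.16).

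Il23a, the subunit that with Il12b forms interleukin 23, was lower. It reached 166 to 205 RPKM in WT and 93.5 and 115 RPKM in dKO at 2 h from 0.264 RPKM or less (-0.74 ± 0.16), and lost its call without dKO 2h LPS replicate 1 (-0.59, limma adjusted p = 0.097). Ebi3, a subunit of interleukins 27 and 35, went from 52.8 to 57.2 RPKM to 154 to 175 RPKM in WT and from 51.6 to 60.4 RPKM to 95.1 and 121 RPKM in dKO (-0.64 ± 0.12, limma adjusted p = 0.0083). Il2, the T cell growth factor that dendritic cells make briefly, was at 5.30 to 6.44 RPKM in WT and 1.33 and 2.22 RPKM in dKO at 2 h (-1.42 ± 0.20). Csf1 was called lower (-0.71), but lost the call without any of 8 single libraries.

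Among the genes that sense LPS, 1 of 22 was called, where 5% of all genes were. Tlr4 itself fell in WT from 30.4 to 32.3 RPKM to 9.51 to 14.4 RPKM, and in dKO from 36.7 to 43.5 RPKM to 27.2 and 31.1 RPKM, so that at 2 h dKO lay above WT (0.97 ± 0.17, limma adjusted p = 0.0047). Of 16 NF-kappaB subunits and inhibitors, Nfkbid was lower (-0.59) and lost the call without any of 4 single libraries. Nfkbia, the inhibitor IkB alpha, did not pass, at 1044 to 1163 RPKM in WT and 1074 and 1087 RPKM in dKO at 2 h (0.23 ± 0.16, limma adjusted p = 0.52).

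Immediate early transcription factors had 3 higher and 1 lower of 22 (2.48% and 2.52% of all genes), with a median of 0.26. Jun, a part of AP-1, went from 38.7 to 44.8 RPKM to 27.9 to 37.4 RPKM in WT and from 44.2 to 56.5 RPKM to 97.1 and 120 RPKM in dKO, a change of -0.36 and of 1.05 (1.41 ± 0.16, limma adjusted p = 2.5e-04). In the discordant libraries Jun was at 179 RPKM without LPS and at 53.0 and 29.6 RPKM at 2 h. Klf4, a factor of monocyte differentiation, fell from 27 to 27.6 RPKM to 1.77 to 2.74 RPKM in WT and from 23.8 to 31.5 RPKM to 4.24 and 4.55 RPKM in dKO (0.94 ± 0.17). Ier3, a stress-induced survival gene, was called (1.02 ± 0.24) but not without dKO 2h LPS replicate 1 (0.87, limma adjusted p = 0.11) or WT 2h LPS replicate 4 (0.93, 0.051). Klf2, a factor of quiescence, was lower (-0.74 ± 0.16) but not without dKO 2h LPS replicate 3 (-0.53, limma adjusted p = 0.078). Egr1, on which MAP kinase signals converge, did not pass (1.16 ± 0.44, limma adjusted p = 0.16).

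The MAP kinase phosphatases and feedback genes had 4 lower and 0 higher of 16 (2.52% and 2.48% of all genes), with a median of -0.14. Dusp2, a nuclear phosphatase of ERK and p38, rose from 0.065 to 0.375 RPKM to 34.7, 35.5, 43.0 and 44.3 RPKM in WT. In dKO it rose from 0.125 to 0.444 RPKM to 11.7 and 20.9 RPKM (-1.39 ± 0.31, limma adjusted p = 0.019). Dusp14 was at 17.6 to 22.7 RPKM in WT and 6.19 and 8.34 RPKM in dKO at 2 h (-0.87 ± 0.20). Dusp5, a nuclear phosphatase of ERK, was at 36.1 to 41.5 and at 19.2 and 20.3 RPKM (-0.80 ± 0.17). For each of the 3 the groups did not overlap at 2 h, yet each call was lost without dKO 2h LPS replicate 1 (-0.99, -0.67 and -0.75, limma adjusted p = 0.097, 0.11 and 0.066). Before LPS Dusp2 and Dusp5 overlapped, but Dusp14 was already lower in dKO. Over the alternative fits without the 3 libraries, the Dusp14 difference ran from -1.07 to -0.02. Cish, an inhibitor of cytokine receptor signalling, was the fourth (-0.45 ± 0.11), with its call lost without any of 7 single libraries. Dusp1, which acts on p38 and JNK, did not pass (0.28 ± 0.27, limma adjusted p = 0.65).

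Genes of cell survival and death had 1 higher and 3 lower of 25 (2.48% and 2.52% of all genes), with a median of 0.08. Bcl2l1, which encodes the survival protein BCL-XL, rose from 24.6 to 30.1 RPKM to 287, 301, 315 and 298 RPKM in WT. In dKO it started at 25.3 to 29 RPKM, overlapping WT, and reached 114 and 144 RPKM (-1.17 ± 0.13, limma adjusted p = 1.8e-04). As labelled, the 4 dKO libraries at 2 h held 114, 30.0, 144 and 44.5 RPKM, all below WT, and the difference was -2.39 (limma adjusted p = 0.33). Bcl2l11, the death-promoting BIM, rose from 22.8 to 25.6 RPKM to 55.6 to 65.0 RPKM in WT and from 22.9 to 25.5 RPKM to 36.7 and 36.1 RPKM in dKO (-0.72 ± 0.10, limma adjusted p = 0.0011). Members of opposite function thus both rose less in dKO. Bcl2 (-0.68 ± 0.15) lost its call without either dKO library at 2 h (limma adjusted p = 0.057 and 0.059), and Bbc3, the death-promoting PUMA (0.59 ± 0.14), without any of 5 single libraries.

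**Figure D5:**
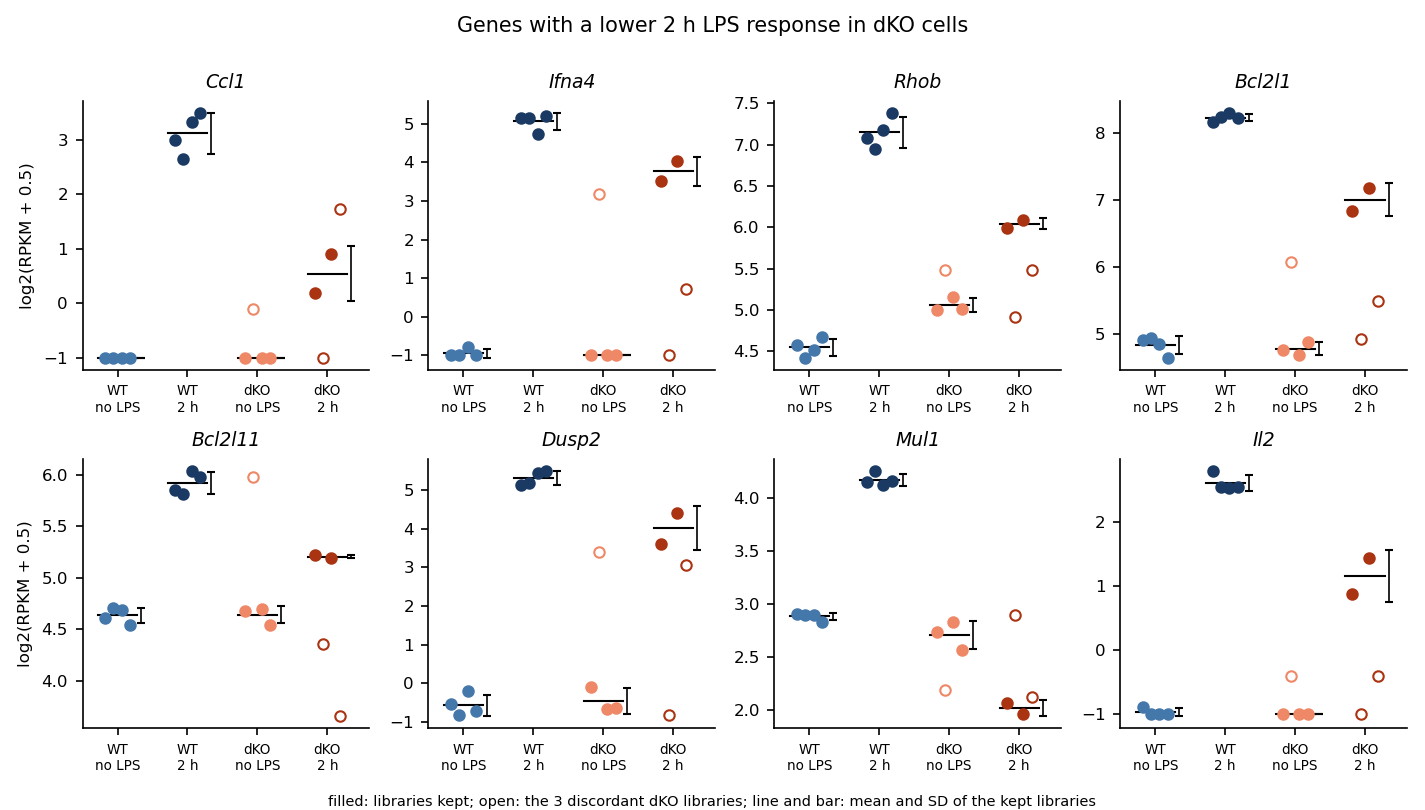
Level of 8 genes with a lower response in dKO on the log2(RPKM + 0.5) scale in each library. At 2 h the filled dKO points lie below the WT points for all 8 genes. Before LPS the filled points overlap in Ccl1, Ifna4, Bcl2l1, Bcl2l11, Dusp2, Mul1 and Il2.

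Other lists had few calls, where 2.48% of all genes were called higher and 2.52% lower. Of 24 glycolysis and hypoxia genes 3 were higher, among them Pfkp, a phosphofructokinase, with 279 to 294 RPKM in WT and 308 and 332 RPKM in dKO at 2 h (0.47 ± 0.09), whose call was lost without dKO 2h LPS replicate 3 (0.42, limma adjusted p = 0.055). The glucose carrier Slc2a1 (0.86) and the oxygen sensor Egln1 (0.71) lost theirs without any of 10 single libraries each. Of 22 cholesterol genes 2 were higher, among them Insig1, which holds back cholesterol synthesis, stood at 18.6 to 26.1 RPKM in WT and 33.0 and 38.8 RPKM in dKO at 2 h (0.85 ± 0.16, limma adjusted p = 0.0072). Odc1, the first enzyme of polyamine synthesis, was the 1 called of 17 prostaglandin, nitric oxide and arginine genes. It stayed at 20.3 to 25.2 RPKM in WT and went from 7.78 to 8.82 RPKM to 14.4 and 16 RPKM in dKO (0.92 ± 0.11, limma adjusted p = 2.5e-04). Of 18 genes of the unfolded protein and heat shock response, the chaperone Hsp90aa1 was higher (0.59 ± 0.11, limma adjusted p = 0.009), Ddit3 was higher (0.67) with its call lost without any of 5 single libraries, and Herpud1, of protein degradation at the endoplasmic reticulum, was lower (-0.60 ± 0.12) with its call lost without dKO 2h LPS replicate 3 (-0.50, limma adjusted p = 0.06).

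Proteasome and antigen presentation genes gave few calls. None of the 3 constitutive catalytic subunits and none of 38 other proteasome genes was called by limma without the 3 libraries (0 and 3 at an unadjusted p under 0.05), where 5% of all genes were. The median difference was 0.09 and 0.00. Psmb9, the immunoproteasome subunit left intact, had a difference of -0.01 ± 0.12 (limma adjusted p = 0.99), and Psmb10 one of -0.21 ± 0.11 (0.32). The residual Psmb8 signal, at 3.95 to 4.32 RPKM without LPS and 4.61 and 4.86 RPKM at 2 h in dKO, gave a difference of 0.33 ± 0.08 (limma adjusted p = 0.023), lost without any of 3 single libraries. Of 17 MHC class I genes only H2-T10, a non-classical class I gene, was called, lower. It went from 2.82 to 4.29 RPKM to 6.71 to 9.27 RPKM in WT and stayed at 18.5 to 18.9 and at 17.1 and 18.0 RPKM in dKO (-1.13 ± 0.19, limma adjusted p = 0.0034). It belongs to a family of similar copies, so its reads are uncertain. By limma, none of 14 MHC class II genes (1 at an unadjusted p under 0.05) or 13 antioxidant genes (4) was called, and 1 of 18 costimulation and migration genes (Tnfsf4) and 1 of 30 DNA replication and mitosis genes were (Bub1b, 0.70, lost without any of 7 single libraries). Cd86 (0.31 ± 0.22, limma adjusted p = 0.52) and Cd40 (0.08 ± 0.30, 0.93), which costimulate T cells, did not pass. Of 26 lysosome and phagocytosis genes 1 was higher and 1 lower, and both lost their call without any of at least 9 single libraries.

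Outside the lists, several genes had larger differences. Nts, the neurotensin precursor, was listed at 0 or at most 0.0394 RPKM before LPS in WT and the kept dKO libraries and reached 0.685 to 1.78 RPKM in WT and 6.22 and 7.98 RPKM in dKO (2.25 ± 0.27, limma adjusted p = 3.6e-04). Ereg, which encodes the growth factor epiregulin, was at 8.58 to 12.3 RPKM in WT and 35.1 and 37.9 RPKM in dKO at 2 h from 0.0499 RPKM or less (1.69 ± 0.17, limma adjusted p = 9.7e-05). Gem, a small GTPase, started at 1.31 to 2.97 RPKM in WT and 0.266 to 0.717 RPKM in dKO and reached 8.19 to 9.67 and 12.3 and 13.8 RPKM (1.99 ± 0.29). Ppp1r3b, which targets a phosphatase to glycogen, fell from 16.1 to 19.1 RPKM to 1.07 to 2.35 RPKM in WT but from 13.3 to 21.5 RPKM to 4.88 and 6.27 RPKM in dKO (1.63 ± 0.28). Rnase6, an antimicrobial ribonuclease, fell in WT from 28.5 to 33.1 RPKM to 8.52 to 14.3 RPKM, while dKO cells were at 2.26 to 3.96 and at 2.99 and 4.37 RPKM (1.76 ± 0.28), so its difference held the WT fall.

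Mul1, a ubiquitin ligase of the mitochondrial outer membrane (mm9 chr4:137990587-137998180), was among the lower genes with the least spread. It rose from 7.0, 6.98, 6.95 and 6.61 RPKM to 17.4, 18.6, 17.0 and 17.5 RPKM in WT. In dKO it went from 6.15, 6.61 and 5.43 RPKM to 3.70 and 3.41 RPKM, a change of -0.69 that is close to that of the middle gene (-1.99 ± 0.11, limma adjusted p = 4.4e-07). The discordant libraries had 4.06 RPKM without LPS and 6.94 and 3.84 RPKM at 2 h, all below WT at 2 h, and as labelled the difference was -1.61 (limma adjusted p = 0.057). Mad2l1bp, which silences the spindle checkpoint, was at 11.2 to 14.6 RPKM in WT and 2.95 and 3.31 RPKM in dKO at 2 h from overlapping levels before (-1.44 ± 0.17). A4galt, a glycolipid galactosyltransferase, was at 0.258 RPKM or less in all 8 WT libraries and fell in dKO from 6.35 to 6.80 RPKM to 0.790 and 0.968 RPKM (-2.26 ± 0.23), so its difference held a dKO fall. Rhob kept its call (-1.61 ± 0.13, limma adjusted p = 2e-05). The RNA U90926 was lower too, at 13.1 to 16.3 RPKM in WT and 3.18 and 4.36 RPKM in dKO at 2 h (-1.68 ± 0.20). Coch (-1.38 ± 0.35) lost its call without any of 10 single libraries.

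Single libraries weighed on the number of calls. Of the 548 genes, 199 (100 higher and 99 lower, 13 of them interferon-stimulated genes) were called in each of the 13 fits that leave out 1 more library, and the limit was set by the 2 dKO libraries at 2 h: 290 of the 548 remained without replicate 1 and 334 without replicate 3. The interferon-stimulated genes called higher numbered 13 to 29 of 36 in these fits and 0 were called lower in any of them. Of the genes named above, Ifna4, Ifna5, Cxcl11, Il23a, Dusp2, Dusp14, U90926 and Coch lost their calls with a pseudocount of 0.1. Without the filter on low RPKM, Ccl5, Oas2, Irf1, Ifna5, Csf1, Cish, Nfkbid, Dusp2, Ier3, Coch, Bbc3, Bub1b, Ddit3, Egln1 and Slc2a1 did. With quantile normalization Tnfsf15, Tyk2, Irf1, Irf5, Dusp5, Ier3, Bbc3, Ddit3, Egln1 and Slc2a1 did. In a fit over all 8 groups of the series, which holds 2 further dKO libraries that lie nearest to another time, 46 of the 548 genes were called and 1 of the 36 interferon-stimulated genes, Isg15.

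Marker genes of other cell types, which a bone marrow culture can hold, differed between genotypes while limma called none of the 53 tested markers in the difference (8 at an unadjusted p under 0.05). The summed level of 13 neutrophil markers was 662 to 845 RPKM without LPS and 1115 to 1419 RPKM at 2 h in WT, against 371 to 394 and 528 to 567 RPKM in the kept dKO libraries, and 1 of the 13 was under 1 RPKM in all 16 libraries. For 13 macrophage markers it was 2166 to 2485 and 1456 to 1615 RPKM in WT and 1794 to 2139 and 1333 to 1354 RPKM in dKO. A sum follows its most abundant members. The median genotype gap (dKO minus WT, log2) of these 13 was -0.005 before LPS and 0.01 at 2 h. Eosinophil, mast cell and basophil markers (14) summed to 937 to 1238 and 1114 to 1814 RPKM in WT and 685 to 862 and 660 to 857 RPKM in dKO, with Tpsab1 listed at 0 throughout. The 6 plasmacytoid dendritic cell markers summed to 184 to 199 and 226 to 252 RPKM in WT and 81.7 to 128 and 159 to 206 RPKM in dKO, with 4 of the 6 under 1 RPKM in all libraries. Nearly all of that sum was Bst2, which is also on the list of interferon-stimulated genes (178 to 192 and 209 to 238 RPKM in WT, 76.8 to 122 and 146 to 186 RPKM in dKO). The other marker above 1 RPKM, Tcf4, overlapped between the genotypes at both times. Erythroid and megakaryocyte markers (7, of which 5 were under 1 RPKM throughout) summed to 42.6 to 69.5 and 46.9 to 57.7 RPKM in WT and 131 to 187 and 134 to 137 RPKM in dKO. Nearly all of that sum was Pf4, which is also on the list of CXC chemokines. Its means were 54.9 and 48.5 RPKM in WT and 149 and 134 RPKM in the kept dKO libraries. The other marker above 1 RPKM, Itga2b, was lower in dKO at both times. The 8 stromal markers summed to at most 3.6 RPKM in any library, the 7 B cell markers to at most 1.54 RPKM and the 10 T and NK cell markers to at most 1.88 RPKM. Dendritic cell markers (14) summed to 12569 to 13872 and 17185 to 18320 RPKM in WT and 10185 to 13564 and 14127 to 16302 RPKM in dKO, with every member above 1 RPKM somewhere. Most of that sum was Cd74, Ccl17 and H2-Ab1. The median genotype gap of the 13 tested members was -0.86 before LPS and -0.60 at 2 h, beside -0.06 and -0.09 over all genes. The part of these differences in the results was not tested, and in bulk RNA fewer cells of a type and less RNA per cell cannot be told apart.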

How the data were processed

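Gene tables of 32 mouse RNA-seq libraries were used, 16 of them in the difference described. The deposited RPKM values had been made by the authors with CASAVA 1.8.2 and mm9, per the submitters' processing notes; how reads were assigned to genes is not given in the sources used here. A column of deposited coverage signal (bases aligned per gene) served for depth only. The 92 ERCC entries were left out of the tests. Genes with at least 1 RPKM in 4 or more of the 16 libraries were fitted as log2(RPKM + 0.5) with limma 3.58.1 in R 4.3.3: 4 group means, a moderated variance with a mean trend, and Benjamini-Hochberg adjustment over 10955 genes. The method was tried on simulated data with normal noise, drawn from the libraries without the 3 discordant ones. The simulated data held no discordant library, so they cannot show how the fit as labelled performs. Alternatives were other pseudocounts, scalings, filters, variance priors, 8-group fits, replicate blocks and each library left out. Replicate numbers were not used to pair libraries. Deviations from the group means correlated above 0.1 in 4 of 16 same-numbered pairs across genotypes, 3 of 4 within WT and 0 of 4 within dKO. The dKO means held the 3 discordant libraries, so pairs with a dKO library cannot show whether the numbers mark pairs. Named genes were the immunoproteasome genes, the 12 highest and 12 lowest called differences with a group mean of at least 5 RPKM, up to 4 per list with the smallest adjusted p, the genes of the library check, and those a statement needs. Some of the genes taken are not reported here. The members, the 32 gene lists and the tests were chosen with earlier results of these data known. Promoters came from RefSeq, GRCm38.p6.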

Additional observations from a re-analysis of the deposited data

Results flagged for a closer look

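The number of genes whose response differed between the genotypes, 4 as labelled and 548 without the 3 discordant libraries, comes from a test of the difference itself. As labelled the 4 were Tlr11 (2.12), C77080 (1.93), Rhob (-2.14) and Ifna1 (-3.05, log2 difference). Without the 3 libraries, among genes with a group mean of at least 5 RPKM, the highest were Nts (2.25), Il33 (2.23), Gem (1.99), Rtp4 (1.79), Rnase6 (1.76), Ereg (1.69), Isg15 (1.66), Ppp1r3b (1.63), Ifit1 (1.63), Lta (1.58), Rsad2 (1.57) and Cmpk2 (1.57). Among the lowest by the same limit were Ccl1 (-2.58), A4galt (-2.26), Mul1 (-1.99), U90926 (-1.68), Rhob (-1.61), Ifna5 (-1.48), Mad2l1bp (-1.44), Il2 (-1.42), Dusp2 (-1.39), Coch (-1.38) and Ifna4 (-1.24).

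A library stood apart from the other 3 of its group in 37 of 156 groups of 4 checked. The limit used gives about 1 in 20 by chance for unrelated groups. Most groups checked were of genes picked by their differences in these data and share libraries, so that share is no standard for the 37. In 21 of the 37 the library was dKO no LPS replicate 2, already set aside as discordant. That library had 9908 genes at 1 RPKM or more. Its LPS-induced genes were high, with Tnf at 6060, Il6 at 1124, Il12b at 735, Isg15 at 432, Rsad2 at 232 and Ifit1 at 104 RPKM. Ereg was at 44.7, Lta at 27.8, Gem at 20.3, Cmpk2 at 18.1, Dusp2 at 10.0 and Ifna4 at 8.51 RPKM. Lower levels that still stood apart were 2.56 RPKM for Il33, 2.42 for Ifna5, 0.710 for U90926, 0.515 for Nts, 0.430 for Ccl1, 0.255 for Il2 and 0.0945 for Ifna1. A4galt was low there, at 1.36 RPKM.

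In the dKO 2h LPS group, replicate 2 stood apart with 10481 genes at 1 RPKM or more, A4galt at 5.91, Mul1 at 6.94, Isg15 at 5.49, Rsad2 at 1.55 and Tlr11 at 0.185 RPKM. Replicate 4 did so with Psmb9 at 269 and Psmb8 at 7.42 RPKM.

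Among WT libraries 8 of the 37 were found, most at levels near 0 or within a narrow range. Without LPS these were Ifna4 at 0.0803, Il2 at 0.0420, Mul1 at 6.61, Nts at 0.0394 and U90926 at 0.170 RPKM. At 2 h they were Ifna4 at 26.1, Il2 at 6.44 and Psmb8 at 182 RPKM.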

How the results depend on the processing

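The count of genes that differed in response as labelled (4) was 2 and 7 with pseudocounts of 0.1 and 1, 25 with no filter, 1 with a filter of 5 RPKM, 32 in a fit over all 8 groups, and 548 without the 3 discordant libraries together. Leaving out 1 library gave 4 to 18 (18 without dKO 2h LPS replicate 2, 9 without replicate 3, 8 without replicate 4). Without the 3 libraries the count of 548 was 46 in a fit over all 8 groups, which also holds 2 discordant libraries of other times, and 621 in the same fit without those 2, an alternative chosen after seeing the data. It was 365 to 541 leaving out 1 more library, the lowest without WT no LPS replicate 4. Median-of-ratios scaling turned its split of 272 higher and 276 lower into 381 and 231. The dKO response as labelled (5052) was 2942 with median-of-ratios scaling and 2219 with quantile normalization. It ranged from 0 to 8353 leaving out 1 library. It was 0 without any 1 of the 6 dKO libraries other than dKO no LPS replicate 2 and dKO 2h LPS replicate 2.

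Deviations of same-numbered libraries correlated above 0.1 in 3 of 4 pairs within WT, 0 of 4 within dKO and 4 of 16 across genotypes. The dKO deviations were taken from group means with the discordant libraries, so pairs with a dKO library cannot decide on pairing. The numbers were not taken as pairs in the main fits. A replicate block within each genotype gave 1 gene as labelled and 533 without the 3 libraries, and 11 for the dKO response as labelled. A replicate block across genotypes gave 4 and 716, and 0 for the dKO response as labelled.

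Of 91 named genes called without the 3 libraries, 16 were called under every alternative, 39 lost the call only in the fit over all 8 groups, 32 lost it without at least 1 single library, and 0 changed sign. All these alternatives leave the 3 libraries out. As labelled some differences turned, such as Isg15 (1.66 to -1.70) and Ifit1 (1.63 to -2.19), while others such as Rtp4 did not (1.79 to 0.63). The depth in reads is unknown, so no counting interval was given for genes near 0 RPKM. The cause of these changes was not tested.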

Other observations

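The genes in this paragraph were chosen after their values were seen, without the 3 discordant libraries. Some genes of the interferon-inducible Pyhin family, which includes sensors of DNA, had higher responses in dKO: Mnda (1.38 ± 0.16), Ifi203 (1.25 ± 0.13), Mndal (1.15 ± 0.13), Pyhin1 (0.91 ± 0.17) and Ifi204 (0.85 ± 0.12), each with a limma adjusted p of 0.0071 or less. Aim2 of the same family did not pass (0.33, limma adjusted p = 0.062), and the members of the family were not counted. Ifi203 was at 11.4 to 14.3 RPKM in WT and 5.27 to 6.44 RPKM in the kept dKO libraries before LPS, and at 89.4 to 104 and at 113 and 115 RPKM at 2 h. Mndal crossed from below WT before LPS to above it, with 338 and 348 RPKM in dKO against 240 to 278 RPKM in WT at 2 h. The Schlafen genes Slfn1 (0.93 ± 0.12), Slfn5 (0.92 ± 0.18), Slfn3 (0.67 ± 0.10) and Slfn2 (0.50 ± 0.08) were also called higher by limma. Members of both families resemble each other, so how reads were divided among them is uncertain.

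The receptor genes Trem1 (-1.06 ± 0.15), Treml1 (-1.5 ± 0.28) and Treml2 (-1.01 ± 0.15) had lower responses by limma. Trem1, an amplifier of inflammatory signals, went from 8.26 to 10.1 RPKM to 15.1 to 18.4 RPKM in WT and from 10.9 to 12.4 RPKM to 8.68 and 11.5 RPKM in dKO. Treml2 started above WT in dKO, at 18.6 to 22.9 against 7.83 to 10.6 RPKM, and overlapped WT at 2 h.

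By chromosome, the share of tested genes called was 0 of 4 on chromosome Y and otherwise ran from 3.18% on chromosome 6 to 7.58% on chromosome 4 (53 of 699), beside 5% over all. On chromosome 4 (mm9), 8 of 24 tested genes between 80 and 90 Mb were called, 4 of them interferon alpha genes, and 10 of 72 between 140 and 150 Mb. Ece1, a metalloprotease on the same chromosome, rose in WT from 12 to 14.6 RPKM to 32.6 to 37.7 RPKM and in dKO went from 18.1 to 20.1 RPKM to 19.2 and 22.5 RPKM (-1.22 ± 0.12, limma adjusted p = 9.6e-05).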
